A study of Mus musculus with 4 samples.

Results

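Most proteins of the mitochondrial respiratory chain are encoded in the nucleus, and 58 of their genes were followed here in LSK cells of mouse bone marrow. LSK cells are lineage-negative, Sca-1-positive and c-Kit-positive cells, the sorted fraction that holds the hematopoietic stem cells and multipotent progenitors. The genes were chosen by symbol from 47561 genes in the expression tables and were grouped by their prefix into complex I (Nduf, 22 genes), complex II (Sdh, 4 genes), complex III (Uqcr and Cyc1, 7 genes), complex IV (Cox, 10 genes) and complex V (Atp5, 14 genes). Cycs, the gene of the mobile carrier cytochrome c, was kept on its own. All 58 genes were listed in the tables, and all 58 reached at least 1 FPKM in each library, so none was lost to the filter on low values that left 13148 genes for testing.

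Complexes I and II pass electrons from NADH and succinate to ubiquinone, complex III hands them to cytochrome c, and complex IV passes them to oxygen. Protons pumped along the way drive complex V, the ATP synthase. Each complex except complex II also holds subunits encoded by mitochondrial DNA, so its assembly needs products of both genomes. Hematopoietic stem cells are known for a reliance on glycolysis at rest and for a rising use of oxidative phosphorylation when they differentiate.

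The 4 libraries came from 12-week-old C57BL/6 mice, 2 mice of each genotype. All 4 mice carried the floxed Metrn gene. The Metrn f/f mice, labelled wild type, had that allele alone and are called the controls here (control 1 and control 2). The Metrn cKO mice, the knockouts (cKO 1 and cKO 2), also carried LysM, which drives recombination in the myeloid lineage (macrophages, monocytes, neutrophils). The series title concerns Meteorin, a secreted factor, in macrophages. Whether the allele also recombined in the sorted cells was not tested. Levels are in FPKM, a unit that divides the fragments of a gene by its length and by the size of the library. Differences between libraries and genotypes are on the scale of log2(FPKM + 1), and p-values come from limma adjusted by Benjamini-Hochberg over the 13148 tested genes.

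The libraries differed in ways that the genotypes did not follow. The sum of all FPKM ran from 392717 (control 1) to 671802 (control 2), with 562401 (cKO 1) and 412955 (cKO 2) for the other mice. The targeted gene Metrn had 29.3 and 66.3 FPKM in the controls and 42.3 and 36.7 FPKM in the knockouts, which overlapped, and deletion in myeloid cells is checked only in part by the level in LSK cells. Summed over 8 neutrophil markers, the level was 2550 and 32529 FPKM in the controls and 58421 and 2002 FPKM in the knockouts. The sum of 9 erythroid markers was 3980 and 37626 FPKM, then 31491 and 3217 FPKM, and that of 8 macrophage markers was 51.7 and 1002 FPKM, then 204 and 58.5 FPKM. No marker of these 3 lists was at 0 in any library. Globin genes held the highest values of the erythroid list, such as Hba-a1 with 12451.5 FPKM in control 2 and 10354 FPKM in cKO 1. Klf1 had 3.25 and 36.2 FPKM in the controls and 5.31 and 2.28 FPKM in the knockouts. Gata1 had 4.02 and 17.8 FPKM, then 3.10 and 2.55 FPKM. Of the 9 erythroid markers, 8 were higher in cKO 1 than in control 1 and 1, Gata1, was lower. The sum of the 8 B and plasma cell markers was 215 and 3338 FPKM, then 10600 and 311 FPKM, with 1 marker at 0 in cKO 2. The 5 megakaryocyte markers summed to 89.7 FPKM or less, and the 5 T and NK cell markers to 150 and 258 FPKM, then 176 and 145 FPKM. The 6 hepatocyte markers split the libraries the other way, with sums of 32.3 and 1.07 FPKM, then 11.6 and 42.9 FPKM, and 5 of them were at 0 in control 2. Lyz2, the gene that carries the driver, had 290 and 2406 FPKM, then 2904 and 245 FPKM. The 8 LSK markers summed to 623, 389, 284 and 728 FPKM in the same order, with none at 0. Single LSK markers went against the order of this sum: Ly6a, which encodes Sca-1, had 37.2 and 83.2 FPKM in the controls and 48.4 and 38.2 FPKM in the knockouts, and Procr and Slamf1 were also higher in control 2 than in control 1. The sums of neutrophil, erythroid, macrophage and B cell markers were higher in control 2 and cKO 1 than in the other libraries, and in a bulk sample fewer cells of a type and less RNA per cell cannot be told apart. The part of these cells in the values below was not tested.

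The 58 genes were highest in control 2 and came next in cKO 1, while control 1 and cKO 2 stood close together. Together they took 5499 FPKM in control 1, 13026.5 in control 2, 8314 in cKO 1 and 5849 in cKO 2, or 1.40%, 1.94%, 1.48% and 1.42% of all FPKM. Control 2 was the highest library for 55 of the 58 genes, where 29.8% of all tested genes were highest in that library. For 51 of the 58 genes cKO 1 came next after it, an order that 16.4% of all tested genes had. The 3 genes that were not highest in control 2 were Ndufs1, Sdha and Atp5k. The difference of control 2 minus control 1 had a median of 1.29 over the 58 genes and of -0.23 over all tested genes. It reached 1, a 2-fold difference, in 41 of the 58 genes, against 13.7% of all tested genes. Among 446 other tested genes with mRNAs under 1 kb and a mean of at least 20 FPKM, 420 were highest in control 2. Of these 446, 330 had cKO 1 next, and the difference of control 2 minus control 1 reached 1 in 376. Of the 35 respiratory genes with mRNAs under 1 kb, 34 were highest in control 2 and 33 had cKO 1 next. Their difference reached 1 in 32. cKO 1 stood above control 1 in 52 of the 58 genes, by a median of 0.64, against 38.6% of all tested genes, and was at least 2-fold above it in 7 (6.56% of all tested genes) and 2-fold below it in 0 (10.4%). cKO 2 stood above control 1 in 44 of the 58 genes, against 57.9% of all tested genes, by a median of 0.09, and in 23 of the 58, with a median of -0.02, when the libraries were centred by length. The ratio of the last pair ran from 0.802 for Cox5a to 1.38 for Ndufa5, and 0 of the 58 were at least 2-fold higher, against 0.745% of all tested genes, or lower, against 0.616%. Within the knockouts, 6 of the 58 were at least 2-fold higher in cKO 1 than in cKO 2, against 6.72% of all tested genes. These are differences between single mice and carry no test.

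**Figure D1:**
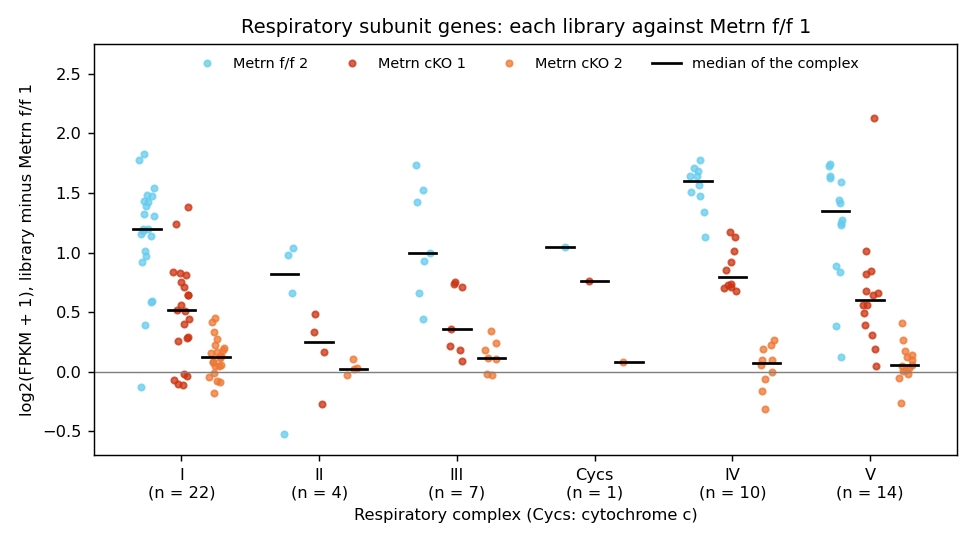
Difference in log2(FPKM + 1) of Metrn f/f 2, Metrn cKO 1 and Metrn cKO 2 from Metrn f/f 1 for each of the 58 genes, by complex, with 1 point per gene and a black bar at the median of the complex. Metrn f/f 2 has the highest median in every complex, from 0.82 in complex II to 1.60 in complex IV, and Metrn cKO 2 lies near 0.

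**Figure D2:**
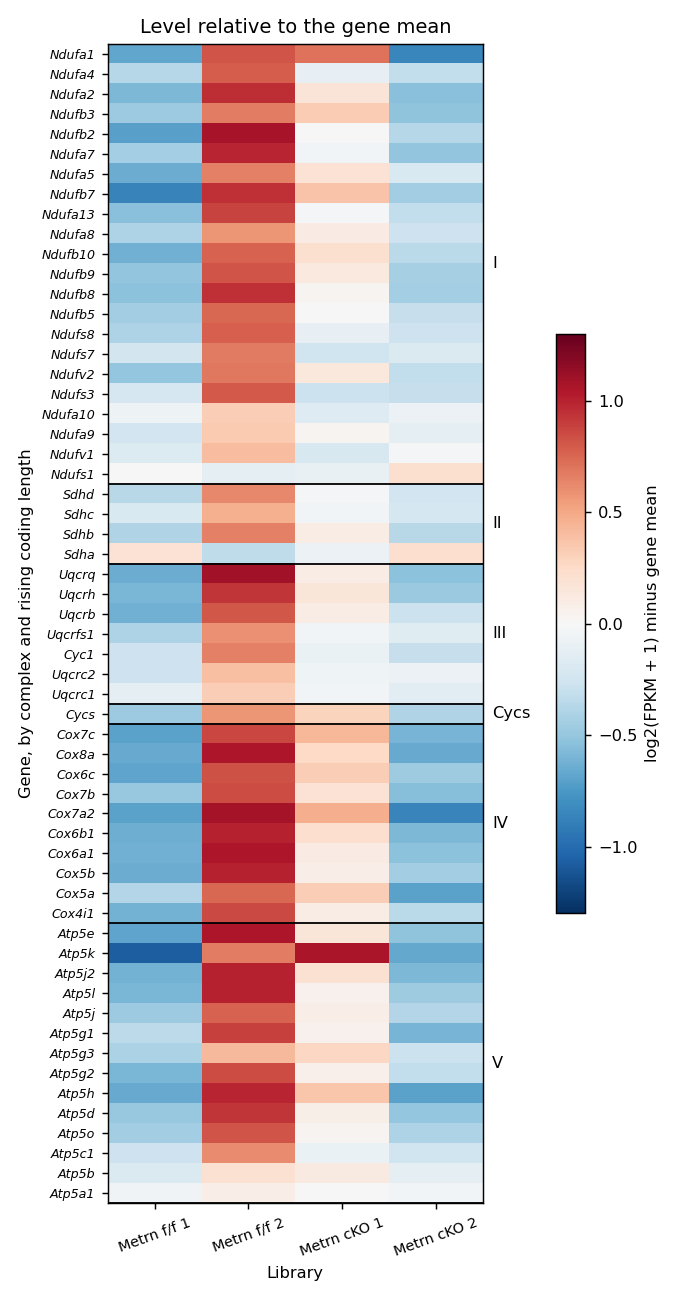
Level of each gene in each library as log2(FPKM + 1) minus the mean of the gene over the 4 libraries, with genes grouped by complex and ordered by rising coding length within it. Red is above and blue below the gene's mean; the Metrn f/f 2 column is red for most genes and pales towards the longest genes of complexes I, II and V.

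Between the genotypes no respiratory gene passed the test. By limma 0 of the 58 genes passed in either direction, as did 0% of all tested genes, and the smallest unadjusted p among the 58 was 0.254, for Ndufs3, with an adjusted p of 1.00. None of the 58 had an unadjusted p under 0.05 by limma, where 0.297% of all tested genes did. The fitted log2 fold change was below 0 in 55 of the 58 genes, against 42.4% of all tested genes, with a median of -0.30 against 0.07 for all tested genes. Of 446 other tested genes with mRNAs under 1 kb and a mean of at least 20 FPKM, 411 were below 0, with a median of -0.33. Of the 35 respiratory genes with mRNAs under 1 kb, 34 were below 0, with a median of -0.36. The fitted log2 fold change was below 0 in 50 of the 58 genes with the libraries scaled to the same sum (34.7% of all tested genes). The number was 43 with quantile normalization (47.5%) and 37 with centring by length (50.9%). The deposited values gave a range from -0.58 for Ndufs3 to 0.40 for Atp5k, and the moderated standard errors from 0.39 to 0.77. Both knockout values lay below both control values in 2 genes, Ndufs3 and Ndufa10, against 5.73% of all tested genes, and above them in 0 genes, against 6.31%. The median stayed below 0 under 3 rescalings of the libraries and under centring by length, but its sign rests on control 2: without that library the median was 0.35, and both knockout values exceeded the remaining control value in 40 of the 58 genes, against 24.0% of all tested genes.

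**Figure D3:**
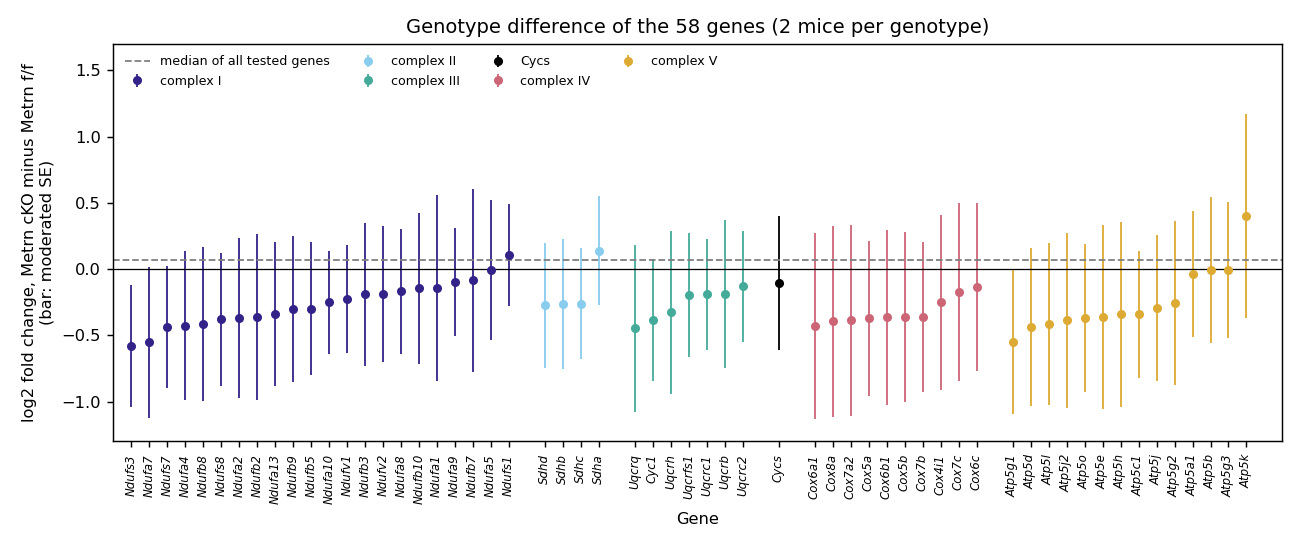
Log2 fold change of Metrn cKO minus Metrn f/f for each of the 58 genes, grouped by complex, with bars for limma's moderated standard error (2 mice per genotype) and a dashed line at the median of all tested genes, 0.07. The values lie between -0.58 and 0.40 and the standard errors between 0.39 and 0.77.

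Complex I takes electrons from NADH through a chain of iron-sulfur clusters in its core subunits, which a larger set of accessory subunits surrounds. Its 22 genes had a median log2 fold change of -0.27, with 21 below 0. Ndufs3, a core subunit next to the site of ubiquinone reduction (chromosome 2, positions 90894634 to 90904827 of GRCm38), had 50.1 and 102 FPKM in the controls and 47.8 and 47.1 FPKM in the knockouts. The groups did not overlap, but 3 of the 4 values lay within a few FPKM of each other and only control 2 stood apart. The group means were 76.0 ± 36.6 FPKM in the controls and 47.5 ± 0.495 FPKM in the knockouts (SD, n = 2 each), and the fitted difference was -0.58 on the log2 scale (SE 0.46). Without control 2 it was -0.075, and without control 1 it was -1.09. The accessory subunit gene Ndufa10 had 62.4 and 82.0 FPKM, then 58.1 and 62.0 FPKM, so that the nearest values of the genotypes almost touched. Its log2 fold change was -0.25 (SE 0.39; unadjusted p by limma 0.540), or -0.056 without control 2 and -0.44 without control 1. Exons of Ndufs3 overlap those of Kbtbd4 on the other strand by up to 85 nt, as exons of 12 of the 58 genes overlap those of another protein-coding gene, and whether the counting used strand is not given in the sources used here.

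Levels of the most abundant complex I genes followed the libraries rather than the genotypes. Ndufa4 had 200 and 448 FPKM in the controls and 240 and 207 FPKM in the knockouts, a log2 fold change of -0.43 (SE 0.56). Its protein carries a complex I name but is now placed in complex IV. The accessory subunit gene Ndufb7 had the largest ratio of control 2 to control 1, at 3.57: it had 76.0 and 272 FPKM in the controls and 181 and 102 FPKM in the knockouts, with a log2 fold change of -0.09 (SE 0.69). Ndufs1, the longest of the 22 by coding length and a core subunit with iron-sulfur clusters, had 27.5 and 25.1 FPKM in the controls and 25.4 and 31.7 FPKM in the knockouts. It was 1 of 2 genes among the 58 that lay lower in control 2 than in control 1. The ratio of Ndufs1 to Ndufb7 therefore moved from 0.361 in control 1 and 0.312 in cKO 2 to 0.141 in cKO 1 and 0.0925 in control 2. Over the 6 core genes the median of cKO 1 minus control 1 was -0.02, and over the 16 accessory genes it was 0.60. For control 2 minus control 1 the medians were 0.96 and 1.36. The core genes were also longer, with coding lengths from 636 nt (Ndufs8) to 2181 nt (Ndufs1). The accessory genes ran from 210 nt (Ndufa1) to 1131 nt (Ndufa9). Over the 58 genes, cKO 1 minus control 1 had a Pearson r of -0.76 with the log2 of the coding length. A difference between core and accessory genes apart from length was not tested.

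Complex II is succinate dehydrogenase, shared with the citric acid cycle, and the only complex with no subunit from mitochondrial DNA. Sdha, the flavoprotein that oxidises succinate, had 98.1 and 68.1 FPKM in the controls and 81.3 and 100.2 FPKM in the knockouts. It was lowest in control 2, against the other 3 genes of the complex. Sdhb, the iron-sulfur subunit bound to it, had 60.2 and 125 FPKM, then 84.5 and 61.2 FPKM. The ratio of Sdha to Sdhb was 1.63 and 0.547 in the controls and 0.962 and 1.64 in the knockouts, so the level of Sdha passed that of Sdhb in control 1 and cKO 2 and lay below it in the other libraries. The membrane anchor genes Sdhc and Sdhd had values like those of Sdhb, at 61.7 and 98.2 FPKM, then 69.5 and 60.4 FPKM, for Sdhc. Sdhd had 66.1 and 132 FPKM, then 83.5 and 71.3 FPKM. The log2 fold change was -0.26 for Sdhc (SE 0.42), -0.27 for Sdhd (SE 0.47) and 0.14 for Sdha (SE 0.41). In the 2 anchor genes the values of the genotypes overlapped. Of the 5 complexes, complex II had the smallest median of control 2 minus control 1, at 0.82 over 4 genes, with the deposited values, and it had the largest with centring by length.

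Complex III moves electrons from ubiquinol to cytochrome c. Its 7 genes all had log2 fold changes below 0, with a median of -0.19 and a range from -0.45 to -0.13. Uqcrh, the hinge protein that docks cytochrome c1, had 104 and 301 FPKM in the controls and 176 and 113 FPKM in the knockouts (log2 fold change -0.33, SE 0.62). Uqcrc1, a large core protein, had 118 and 161 FPKM, then 125 and 116 FPKM (log2 fold change -0.19, SE 0.42). Cyc1, the heme-bearing cytochrome c1, had 68.5 and 131 FPKM, then 77.8 and 67.3 FPKM (log2 fold change -0.39, SE 0.46). In all 3 genes control 2 was the highest library, and of the 3 the large core protein varied least between libraries. Cycs, which encodes the cytochrome c that carries electrons from complex III to complex IV and sets off caspases when released, had 21.9 and 46.4 FPKM in the controls and 37.8 and 23.3 FPKM in the knockouts (log2 fold change -0.10, SE 0.51). Its mean of 32.4 FPKM was the next lowest of the 58 after that of Ndufs1.

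Complex IV, cytochrome c oxidase, takes its catalytic core from mitochondrial DNA, and its nuclear subunits are small proteins around that core. All 10 genes were at least 2-fold higher in control 2 than in control 1, with ratios from 2.20 for Cox5a to 3.49 for Cox7a2 and a median difference of 1.60. A difference of at least 2-fold was also seen in 376 of 446 other tested genes with mRNAs under 1 kb and a mean of at least 20 FPKM. The mRNAs of the 10 genes were 503 to 1001 nt long, and with centring by length their median difference was 0.32. In cKO 1 all 10 were above control 1, by a median of 0.80, and in cKO 2 the median was 0.08. Cox4i1, the most abundant of them, had 245 and 681 FPKM in the controls and 401 and 295 FPKM in the knockouts. Its group means were 463 ± 309 and 348 ± 75.05 FPKM (SD, n = 2 each), and the fitted difference was -0.25 on the log2 scale (SE 0.66). Cox6a1 had 219 and 707 FPKM, then 365 and 235 FPKM (log2 fold change -0.43, SE 0.70). Both knockout values of Cox4i1 and Cox6a1 lay between the control values. Cox7b, the member of the complex with the smallest p, had 53.3 and 137 FPKM, then 86.0 and 51.1 FPKM (log2 fold change -0.36, SE 0.57). With Ndufa4 added, the median log2 fold change of the complex stayed at -0.36.

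Complex V makes ATP in its F1 head, turned by a ring of c subunits in the membrane. The F1 genes split by size: Atp5a1 and Atp5b, the large alpha and beta subunits, differed little between libraries, and the small delta and epsilon subunit genes differed widely. Atp5b, the most abundant of the 58 genes with a mean of 470 FPKM, had 411 and 536 FPKM in the controls and 508 and 427 FPKM in the knockouts (log2 fold change -0.01, SE 0.55). Atp5a1 had 285 and 311 FPKM, then 295 and 286 FPKM. Atp5e, the epsilon subunit gene, had 168 and 562 FPKM, then 302 and 189 FPKM (log2 fold change -0.36, SE 0.69). The ratio of Atp5a1 to Atp5b ran from 0.580 in cKO 1 to 0.693 in control 1, while that of Atp5b to Atp5e ran from 0.953 in control 2 to 2.45 in control 1. Atp5k, which encodes the small membrane subunit e, was named after its values were seen: it had 23.4 and 79.9 FPKM in the controls and 106 and 31.3 FPKM in the knockouts. It was the only one of the 58 genes that was highest in cKO 1, and its log2 fold change of 0.40 (SE 0.77) was within the spread between mice.

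The c subunit comes from 3 genes, Atp5g1 (chromosome 11, positions 96068852 to 96075670 of GRCm38), Atp5g2 (chromosome 15, positions 102662864 to 102672352) and Atp5g3 (chromosome 2, positions 73908447 to 73911326). Their proteins differ in the leader that directs import and share the mature subunit. The ends of the 3 coding sequences, read from the GENCODE M21 transcripts, are shown because a reader can see in them how the same protein end is spelled by different codons. Each run is 237 bases, 5′ to 3′, and ends with the stop codon. Capitals mark the 64 positions at which the 3 genes are not all alike.
Atp5g1: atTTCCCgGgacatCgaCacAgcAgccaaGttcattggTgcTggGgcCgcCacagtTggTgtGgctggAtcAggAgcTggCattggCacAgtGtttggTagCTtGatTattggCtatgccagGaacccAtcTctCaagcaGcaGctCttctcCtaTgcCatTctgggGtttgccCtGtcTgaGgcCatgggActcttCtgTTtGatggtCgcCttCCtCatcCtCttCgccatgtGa
Atp5g2: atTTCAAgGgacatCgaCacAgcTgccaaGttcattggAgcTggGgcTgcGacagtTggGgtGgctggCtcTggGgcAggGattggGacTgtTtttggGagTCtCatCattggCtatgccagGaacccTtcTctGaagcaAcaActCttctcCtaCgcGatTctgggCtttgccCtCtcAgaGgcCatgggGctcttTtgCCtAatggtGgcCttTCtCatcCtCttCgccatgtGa
Atp5g3: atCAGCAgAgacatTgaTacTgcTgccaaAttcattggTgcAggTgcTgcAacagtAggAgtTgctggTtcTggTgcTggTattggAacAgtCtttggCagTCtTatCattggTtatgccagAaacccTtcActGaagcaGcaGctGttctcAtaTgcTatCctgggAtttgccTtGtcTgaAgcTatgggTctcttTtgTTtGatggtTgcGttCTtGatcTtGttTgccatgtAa
The 78 codons before the stop translated to the same protein end in all 3 genes. Atp5g1 and Atp5g2 were 84.8% identical over these bases, Atp5g1 and Atp5g3 78.5%, and Atp5g2 and Atp5g3 77.2%. The longest run shared by any pair was 21 bases, so a read longer than that within this stretch differs between the genes. Near-identical pseudogenes were not compared, and how the authors' counting treated reads with several matches is not given in the sources used here.

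Atp5g2 had the largest share of the summed FPKM of the 3 c subunit genes in every library. Such shares depend on the gene length behind each FPKM value, which is not stated. Annotated mRNA lengths were 4660 nt for Atp5g1, 586 nt for Atp5g2 and 714 nt for Atp5g3. The order of the 3 genes by number of transcripts was not tested. Atp5g2 had 175 and 476 FPKM in the controls and 277 and 211 FPKM in the knockouts (log2 fold change -0.25, SE 0.62). Atp5g3 had 149 and 267 FPKM, then 239 and 164 FPKM (log2 fold change -0.01, SE 0.51), and Atp5g1 had 66.7 and 158 FPKM, then 88.1 and 55.3 FPKM (log2 fold change -0.55, SE 0.54). Of the summed FPKM of the 3 genes, Atp5g2 took 44.8% and 52.8% in the controls and 45.9% and 49.0% in the knockouts. Atp5g1 took 17.1% and 17.5%, then 14.6% and 12.8%. The sum of the 3 genes, 390, 900.3, 604 and 430.4 FPKM in the order control 1, control 2, cKO 1 and cKO 2, moved more between libraries than the shares did.

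The size of the difference between libraries went with the length of the gene. The 58 mRNAs had a median length of 863 nt against 2814 nt for all tested genes with a GENCODE length, and 35 of them were under 1 kb, against 7.27% of those tested genes. The 9 genes with a coding length over 1 kb, among them Sdha, Ndufs1, Atp5a1, Atp5b and Uqcrc1, had ratios of control 2 to control 1 from 0.695 to 1.59. The 32 genes with a coding length under 0.5 kb had ratios from 1.80 to 3.57, so the ranges did not overlap. Across the 58 genes, which share the same 2 libraries and are not replicates, the difference of control 2 minus control 1 had a Pearson r of -0.85 with the log2 of the coding length and a Spearman rho of -0.79. With the mRNA length these were -0.69 and -0.68. The difference of cKO 2 minus control 1 had an r of -0.04 with the log2 of the coding length, and the genotype difference had 0.28.

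The same slope with length ran through the other tested genes. Among tested genes outside the 58, the median of control 2 minus control 1 was 1.21 for mRNAs under 1 kb, 0.50 from 1 to 2 kb, -0.33 from 2 to 4 kb and -1.18 over 4 kb. The respiratory genes lay above these medians in each class, at 1.48 over 35 genes under 1 kb, 0.98 over 15 genes from 1 to 2 kb and 0.39 over 7 genes from 2 to 4 kb. Other genes with a mean of at least 20 FPKM had medians of 1.36, 0.62 and -0.22 in these classes. The single respiratory gene over 4 kb was Atp5g1, with an annotated mRNA length of 4660 nt and a coding length of 408 nt. With each library centred within the length classes, the median of the 58 genes was 0.24 for control 2 minus control 1 and -0.02 for the genotype difference. Scaled to the same FPKM sum in each library, the median of control 2 minus control 1 was 0.53 for the 58 genes and -0.95 for all tested genes, a gap of 1.48 against 1.52 with the deposited values. With quantile normalization the medians were 0.66 and -0.06, a gap of 0.71. RNA integrity and the length of RNA fragments cannot be read from FPKM tables, and their part in the slope was not tested.

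**Figure D4:**
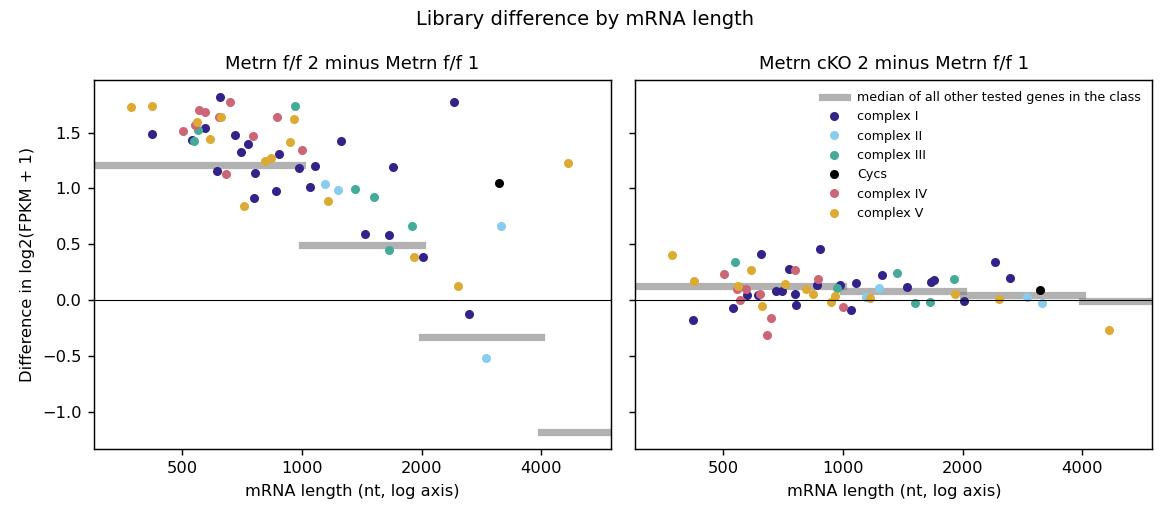
Difference in log2(FPKM + 1) against mRNA length in nt on a log axis for the 58 genes, coloured by complex, with grey bars at the median of all other tested genes in 4 length classes. In Metrn f/f 2 minus Metrn f/f 1 (left) the grey bars step from 1.21 down to -1.18 and most respiratory genes lie on or above them, and in Metrn cKO 2 minus Metrn f/f 1 (right) points and bars stay near 0.

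Other genes of the pathway were read from lists of symbols, and by limma none of their members passed in either direction. The 23 other nuclear-encoded subunits, such as Ndufa6, Uqcr10 and Cox7a2l, repeated the pattern of the 58 genes. They had a median of 1.51 for control 2 minus control 1 and a median log2 fold change of -0.27. Of the 23 genes, 21 had log2 fold changes below 0, against 42.4% of all tested genes. Separate groups were seen in 0 of them, where 5.73% of all tested genes had both knockout values below and 6.31% above. Of 47 assembly factors, which build the complexes and are not part of them, 45 were tested, with a median log2 fold change of -0.28 and 9 genes in which both knockout values lay below both control values, against 5.73% of all tested genes. Their median for control 2 minus control 1 was 0.40. The 9 genes were Ndufaf4, Ndufaf7, Nubpl, Ecsit, Tmem126b, Sdhaf3, Bcs1l, Cox11 and Atpaf2, and this count is for the deposited values only. Sco2, which delivers copper to complex IV, was not among them. It had 2.27 and 10.2 FPKM in the controls and 3.15 and 1.90 FPKM in the knockouts, which overlapped. The 17 citric acid cycle and pyruvate dehydrogenase genes had a median of 0.01 for control 2 minus control 1, with 9 above 0 and 8 below and a range from -1.81 to 0.69. Mdh2, a malate dehydrogenase, had 138 and 223 FPKM in the controls, and Ogdh, of the oxoglutarate dehydrogenase complex, had 50.7 and 13.7 FPKM. Among them Cs, the gene of citrate synthase, had 56.8 and 47.7 FPKM in the controls and 54.6 and 53.1 FPKM in the knockouts. The genes of 78 mitochondrial ribosomal proteins had a median of 0.98 for control 2 minus control 1 and a median log2 fold change of -0.30, and 85 tested genes of cytosolic ribosomal proteins had 1.36 and -0.36. The medians of these 2 ribosomal lists lay near those of the respiratory genes. With the deposited values, both knockout values lay below both control values in 3 of the 17 citric acid cycle and pyruvate dehydrogenase genes. The same was seen in 7 of the 78 mitochondrial and 1 of the 85 cytosolic ribosomal protein genes, and both lay above in 0 genes of each list. No test was made between the lists, and their gene lengths were not compared.

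The 13 protein genes of mitochondrial DNA supply the remaining subunits of complexes I, III, IV and V. They summed to 11772 and 18175 FPKM in the controls and 15927.5 and 12816 FPKM in the knockouts, with a median log2 fold change of -0.01. The summed FPKM of the 58 nuclear genes was 0.467 and 0.717 of that sum in the controls and 0.522 and 0.456 of it in the knockouts, so relative to the mitochondrial genes the nuclear ones stood highest in control 2. Of the 13 mitochondrial genes, 1 had both knockout values above both control values (6.31% of all tested genes) and 0 had both below (5.73%).

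Of 14 regulators of mitochondrial gene expression, 13 were tested, and 11 of these had log2 fold changes above 0, with a median of 0.21 and no gene passing by limma. The other 2 were below 0, where 42.4% of all tested genes were. Their median of control 2 minus control 1 was -0.73, against 1.29 for the subunits followed here and -0.23 for all tested genes. Tested genes with mRNAs of 2 to 4 kb had a median of -0.33, and those over 4 kb had -1.18. The lengths of the regulators were not compared, so a difference apart from length was not tested. In control 2, 11 of the 13 were lower than in control 1. The 2 that were higher were Esrra, with 14.8 and 16.2 FPKM in the controls, and Tfb1m, with 7.65 and 9.95 FPKM. Gabpa, an ETS factor that acts on many respiratory promoters, had 16.4 and 6.38 FPKM in the controls and 11.8 and 15.8 FPKM in the knockouts. Nrf1, nuclear respiratory factor 1, had 19.6 and 13.8 FPKM, then 18.2 and 17.8 FPKM. Pprc1, a coactivator of the PGC-1 family, had 16.9 and 2.84 FPKM, then 6.10 and 18.4 FPKM. Control 2 was the lowest library for these 3 genes. Ppargc1a, the best known coactivator of the family, did not pass the filter, with at most 0.204 FPKM. Of the 13 tested regulators, 2 had both knockout values above both control values (6.31% of all tested genes) and 0 had both below (5.73%).

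Promoter windows from 250 bases before to 50 bases after the gene start were available from RefSeq on GRCm38.p6 for 47 of the 58 genes. The Nrf1 motif, a palindrome of 10 letters given by the capitals in the lines that follow, was found in 4 of these 47 genes (8.51%) and in 1.07% of all 27025 genes with such windows. The 30 bases around each match are shown, with the motif in capitals, because they place the same letters in genes of 3 complexes.
Atp5g2 (chr15:102671070-102671099, minus strand): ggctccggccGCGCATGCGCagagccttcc
Atp5k (chr5:108434430-108434459, minus strand): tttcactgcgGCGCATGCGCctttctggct
Cox6a1 (chr5:115349101-115349130, minus strand): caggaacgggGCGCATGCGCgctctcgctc
Uqcrc1 (chr9:108936668-108936697, plus strand): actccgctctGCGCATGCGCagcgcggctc
Counted from the RefSeq gene start used for the window, the match began at -42 in Atp5g2, -50 in Atp5k, -162 in Cox6a1 and 30 in Uqcrc1. This start can differ from the ends of the gene positions given above, which are from GENCODE. The Atp5g2 match lies inside the positions given above for that gene. The ETS motif CCGGAAG, the core bound by Gabpa and related factors, was found in 14 of the 47 genes (29.8%) and in 9.93% of all genes. The Yy1 motif AAGATGGCG was found in 4 of the 47 genes (8.51%) and in 1.64% of all genes. No motif holds the letters of another, both strands were searched for each, and 19 of the 47 genes held at least 1 of them. The 4 genes with the Nrf1 motif had log2 fold changes from -0.43 for Cox6a1 to 0.40 for Atp5k, which spans much of the range of the 58 genes. The shares over all genes include genes that were not tested here. A share over expressed genes alone was not computed, and the base content of the windows was not compared. A match is a description of letters and not of binding.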

How the data were processed

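RNA of LSK cells sorted from 4 mice was sequenced on an Illumina platform. The authors deposited FPKM values, 1 table per library; how they were computed is not stated, and the unit was inferred from the values, since the file headers give only the library name. No rescaling between libraries was added. Per the submitters' processing notes the build was mm10, and the tools named, with no roles, were DESeq2 2.11.40.6, featureCounts 1.6.4, HISAT2 2.1, cutadapt 1.16.5 and bcl2fastq 2.19. FPKM tables hold no read totals, so the depth is unknown and no counting interval is given. A gene was tested where 2 or more libraries reached 1 FPKM, with limma 3.58.1 in R 4.3.3 on log2(FPKM + 1), with a mean-variance trend and a threshold of 0.05 on the adjusted p; the pipeline was tested on simulated data. The fold change on this scale understates that of low genes. Lengths and coding sequences came from GENCODE M21 (translated with Biopython 1.88) and promoters from RefSeq; protein tables were not used here. Named genes were Metrn, Lyz2, the 2 most abundant and the smallest-p gene of each complex, genes with separate groups, Cycs, Ndufa4 and the c subunit genes; others named were chosen for their role or after their values were seen. The members and lists were chosen with earlier results of these data known.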

Additional observations from a re-analysis of the deposited data

How the results depend on the processing

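No respiratory gene passed under any alternative run. Over all tested genes limma called 0 (39 at an unadjusted p under 0.05), 6 with no filter on low values (373 unadjusted) and between 0 and 34 when a library was left out, with 34 without cKO 2 and 5 without cKO 1; there the lone library is assumed to vary like the others. The replicate number used as a block gave 4 genes and changed no other call. Same-numbered libraries deviated in opposite directions (r = -0.71 over 13148 genes, which are not replicates) and no label ties them, so they share only a number; the crossed pairing, chosen after seeing the data, gave 102 genes. Respiratory genes with both knockout values below both control values numbered 9 with the libraries scaled to the same sum (5.72% of all tested genes), 1 with the same upper quartile (6.01%), and 2 to 55 when a library was left out: 55 without control 1 (31.1%), 2 without control 2 (27.4%), 14 without cKO 1 (17.2%) and 4 without cKO 2 (24.0%). Those above numbered 1 with the same sum (3.28%), 1 with quantile normalization (5.67%), 6 with centring by length (6.97%), and 1 to 40 when a library was left out: 2 without control 1 (46.2%), 40 without control 2 (24.0%), 2 without cKO 1 (36.0%) and 1 without cKO 2 (17.6%). Centring by length was chosen after seeing the data. It changed the log2 fold changes of the tested genes with a length by a median of -0.12. Of the 58 genes, log2 fold changes turned above 0 in 5 with the same sum, 12 with quantile normalization and 19 with centring by length. Among the 19 genes named by rule these were Ndufb7 0.0077, Atp5b 0.083 and Atp5g3 0.083 with the same sum; Ndufb7 0.14, Uqcrc1 0.0026, Atp5b 0.14 and Atp5g3 0.19 with quantile normalization; and Ndufb7 0.27, Uqcrh 0.034, Cox4i1 0.11, Atp5b 0.15, Atp5g2 0.11 and Atp5g3 0.35 with centring by length. The cause was not tested. Leaving out each library in turn, the median ran from -0.92 to 0.35 over the 58 genes, -0.90 to 0.32 in complex I, -0.68 to 0.15 in complex II, -0.85 to 0.30 in complex III, -1.11 to 0.46 in complex IV and -0.99 to 0.36 in complex V. Single genes ran from -1.005 to 0.15 (Ndufa4), -0.997 to 0.83 (Ndufb7), -0.12 to 0.40 (Sdha), -0.59 to 0.070 (Sdhc), -0.76 to 0.22 (Sdhd), -0.41 to 0.035 (Uqcrc1), -1.09 to 0.44 (Uqcrh), -0.85 to 0.078 (Cyc1), -0.63 to 0.42 (Cycs), -0.99 to 0.49 (Cox4i1), -1.27 to 0.42 (Cox6a1), -1.03 to 0.31 (Cox7b), -0.20 to 0.18 (Atp5b), -1.23 to 0.51 (Atp5e), -1.16 to 0.065 (Atp5g1), -0.97 to 0.47 (Atp5g2), -0.43 to 0.41 (Atp5g3), -1.09 to -0.075 (Ndufs3) and -0.44 to -0.056 (Ndufa10).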

Other observations

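Tissue-restricted isoforms of complex IV subunits and of cytochrome c, whose common forms are among the 58 genes, were mostly low. Cox7b2, Cox8c and Cyct, forms known from testis, were listed at 0 in all 4 libraries. Cox6b2, known from testis, had 22.7 and 42.2 FPKM in the controls and 20.3 and 28.4 FPKM in the knockouts, against 117, 368, 213 and 122 FPKM for the common form Cox6b1. Cox6a2, the heart and muscle form, had 6.63 and 23.8 FPKM, then 32.6 and 7.19 FPKM, and its exons overlap those of Itgad on the other strand by up to 70 nt. It was highest in cKO 1, as were the sums of the neutrophil and B cell markers (6 of 8 and 8 of 8 markers), and their part in this was not tested. Cox4i2, the lung and hypoxia form, had 1.63 and 3.47 FPKM in the controls and 0.483 and 0.337 FPKM in the knockouts. Its groups did not overlap, but its log2 fold change of -1.28 (SE 0.54) did not pass in limma (unadjusted p 0.0532), and all of its values were low.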
